A study of Homo sapiens with 6 samples.

Results

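The 2717 sites described here are places of thymidine glycol (Tg), an oxidised thymidine, that were listed in wild-type HEK293T cells and overlapped by at least 1 bp a site listed in cells with NTHL1 and NEIL1 both disrupted. They are 75.1% of the 3618 wild-type sites on chromosomes 1 to 22 and X, and their partners are 2597 of the 9277 double-knockout sites on the same chromosomes, or 28%. The sites were chosen by overlap of the positions in both lists, so overlap and sharing are given below as a description. HEK293T is an established human line of embryonic kidney origin that expresses the large T antigen of SV40. The double-knockout line (NTHL1-/-,NEIL1-/-) is isogenic with it, and the sources used here give neither the number of clones behind it nor the kind of disruption. Both lines were grown without treatment, and Tg was mapped by DPC-Seq in 2 labelled libraries of each genotype, with 1 input library each. The authors deposited 1 site list per genotype, so a value below has no spread between libraries and the genotypes were compared without a test.

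Tg forms when reactive oxygen attacks the thymine ring, and it can block DNA polymerases. NTHL1 and NEIL1 are DNA glycosylases: they cut the damaged base out and thereby start base excision repair. DPC-Seq uses purified NTHL1 protein as the probe. The enzyme is trapped on the DNA where it removed a base, and the crosslinked fragments are pulled down and sequenced, so both genotypes are read with the same added enzyme.

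Each site has a summit, the base with the highest pile of fragments. Whole reads at the summit and the caller's background there were recovered from the deposited fold enrichment and p of the site. Double-knockout reads were divided by 1.69, the ratio of the lowest backgrounds of the lists, before they were set beside wild-type reads. That ratio was taken as depth times fragment length. The narrowest sites (256 bp in the double knockout, 243 bp in wild type) stood for fragment length, which gave an estimate of 1.61 times deeper double-knockout data. Values called depth alone below rest on this estimate. Partners held 7 to 452 reads as recovered (median 23) and shared wild-type sites 6 to 405 (median 14). Total reads per library are unknown. Intervals below are exact 95% intervals for counting error alone, and reads amplified from 1 molecule are not independent. Neighbouring sites are not independent either, so intervals on shares of sites are too narrow.

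Where shared sites reached a gene start, the letters of the DNA can be shown. Of 2633 shared wild-type sites on the chromosomes covered by the RefSeq promoter table (300 bases, from 250 before to 50 after a start), 24 (0.912%, 0.585% to 1.35%) overlapped a window, against 47 of 6455 double-knockout sites without a partner (0.728%, 0.535% to 0.967%) and 7 of 873 wild-type sites without one (0.802%, 0.323% to 1.65%). The shared wild-type sites touched 27 of 34961 windows. Protein-coding windows that lay inside both sites of a pair for at least 50 bases belonged to 7 genes. They are shown because they hold the DNA common to both lists, and were picked after the overlap was known. TSC2, whose product restrains the growth kinase mTOR, faces NTHL1 on the opposite strand and shares its site, so the NTHL1 window stands for both. The windows are from GRCh38.p14, which shares primary coordinates with the hg38 build of the lists. They run 5′ to 3′ along the gene's strand, and capitals mark the bases inside both sites.
NTHL1, chr16:2047785-2048084, minus strand: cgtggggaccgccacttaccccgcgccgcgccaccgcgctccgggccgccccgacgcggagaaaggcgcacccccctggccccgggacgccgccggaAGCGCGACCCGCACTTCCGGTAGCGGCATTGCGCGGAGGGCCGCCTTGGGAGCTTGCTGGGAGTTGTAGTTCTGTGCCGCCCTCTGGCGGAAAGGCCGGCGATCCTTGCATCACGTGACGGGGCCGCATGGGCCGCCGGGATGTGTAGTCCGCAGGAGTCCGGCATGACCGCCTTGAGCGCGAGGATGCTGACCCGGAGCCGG
LOC105379504, chr21:7775822-7776121, plus strand: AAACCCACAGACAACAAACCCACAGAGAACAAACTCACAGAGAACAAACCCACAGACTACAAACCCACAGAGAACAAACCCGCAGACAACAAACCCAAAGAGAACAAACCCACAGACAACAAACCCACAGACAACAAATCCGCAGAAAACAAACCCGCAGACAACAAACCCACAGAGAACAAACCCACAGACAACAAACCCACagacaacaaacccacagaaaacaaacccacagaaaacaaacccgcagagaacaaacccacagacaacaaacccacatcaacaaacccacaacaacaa
ESPNL, chr2:238127140-238127439, plus strand: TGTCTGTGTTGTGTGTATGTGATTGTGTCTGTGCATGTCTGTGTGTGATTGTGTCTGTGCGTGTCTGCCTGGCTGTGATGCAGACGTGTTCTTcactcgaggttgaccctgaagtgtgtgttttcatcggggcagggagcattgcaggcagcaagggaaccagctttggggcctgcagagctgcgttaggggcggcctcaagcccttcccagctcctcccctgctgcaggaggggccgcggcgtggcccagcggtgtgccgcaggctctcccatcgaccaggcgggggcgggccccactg
SH3KBP1, chrX:19833102-19833401, minus strand: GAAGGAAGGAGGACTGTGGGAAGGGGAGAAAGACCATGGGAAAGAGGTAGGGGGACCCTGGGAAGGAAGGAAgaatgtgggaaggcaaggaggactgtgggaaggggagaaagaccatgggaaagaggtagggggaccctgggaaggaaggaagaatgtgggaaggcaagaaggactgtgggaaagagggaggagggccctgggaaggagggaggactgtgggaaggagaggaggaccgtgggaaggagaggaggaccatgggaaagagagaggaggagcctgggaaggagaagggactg
GDF11, chr12:55742872-55743171, plus strand: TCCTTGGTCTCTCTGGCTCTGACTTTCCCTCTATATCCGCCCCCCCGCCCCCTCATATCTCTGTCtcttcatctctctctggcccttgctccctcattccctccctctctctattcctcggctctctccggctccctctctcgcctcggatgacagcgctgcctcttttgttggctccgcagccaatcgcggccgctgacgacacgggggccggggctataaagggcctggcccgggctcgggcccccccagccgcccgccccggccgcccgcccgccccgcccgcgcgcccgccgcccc
ASIC2, chr17:33293246-33293545, minus strand: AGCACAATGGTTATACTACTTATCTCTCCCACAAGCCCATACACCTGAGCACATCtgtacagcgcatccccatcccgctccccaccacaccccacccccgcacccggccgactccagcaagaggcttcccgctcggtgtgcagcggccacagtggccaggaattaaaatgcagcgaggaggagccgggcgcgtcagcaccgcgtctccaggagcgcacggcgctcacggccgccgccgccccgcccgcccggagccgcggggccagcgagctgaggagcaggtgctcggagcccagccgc

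In 4 of these windows the shared bases held very unequal numbers of T and A on the printed strand. ESPNL, an espin-like actin-bundling protein gene, had 41 T and 7 A among 93 shared bases, much of it in runs of TG. GDF11, the gene of a secreted growth factor of the TGF-beta family, had 22 T and 5 A in 65 bases. SH3KBP1, which encodes an endocytic adaptor, had 5 T and 26 A in 72 bases. LOC105379504 had 3 T and 106 A in 203 bases and repeated itself: 89.0% of bases were the same as the base 30 further on. As a difference over the sum of T and A, these came to 70.8%, 63.0%, 67.7% and 94.5%, and 0.777%, 2.80%, 1.52% and 0.0452% of protein-coding windows were at least as unequal at the same positions. In the rest of the same windows, outside the shared bases, the imbalance was 7.69%, 46.0%, 61.3% and 96.4% in the same order. Except in ESPNL, it was thus not confined to the shared bases. For NTHL1 and ASIC2 the rest of the window gave 41.2% and 31.25%. The shared parts of the NTHL1 window (35 T and 28 A in 203 bases, 11.1%) and of ASIC2, an acid-sensing ion channel gene (13 T and 17 A in 55, 13.3%), were near the medians for their positions (11.9% and 20.0%). NTHL1 also stood out by its 24 CpG pairs in the shared part, where ESPNL and GDF11 had 2 each and LOC105379504 had 3.

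Over coding and non-coding windows, with 1 window per site, the median T and A imbalance was 53.7% over 12 shared sites, 25.1% over 36 double-knockout sites without a partner, 38.3% over 4 wild-type sites without one, and 15% over the first 100 bases of all windows. The stretches had a median length of 110.5 bases at shared sites and of 162.5 and 180 bases at double-knockout and wild-type sites without a partner. Shorter stretches are more unequal in general (the median over protein-coding windows was 10.8% for 253 bases and 20.0% for 55), so these medians are not matched for length. The letters TTAGGG, or CCCTAA on the other strand, stood in 9.05% of all windows and in 1 of the 12 protein-coding windows overlapped by both sites of a pair (ESPNL, outside the shared bases). So few windows describe a handful of gene starts and not the shared sites as a whole, whose sequence was not analysed here.

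Within the double-knockout list 28% of sites were shared (27.1% to 28.9%), and within the wild-type list 75.1% were (73.7% to 76.5%). Pairing was nearly always simple. A single partner was found for 2681 of the 2717 sites (98.7%), and 36 sites had 2 partners. Among the partners, 2451 overlapped 1 wild-type site, 136 overlapped 2 and 10 overlapped 3. Counted from the wild-type side, 2387 sites (87.9%) stood in a pair with 1 site of each list and 298 had a partner that also covered another wild-type site. The partners covered 1849 kb and the shared wild-type sites 1367 kb, and the 1263 kb they had in common made up 68.3% of the partners and 92.4% of the wild-type sites.

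The limit of 1 bp decided few members. The smallest overlaps were 4, 5 and 17 bp, and 13 sites (0.478%) overlapped by less than 50 bp. The 4 bp overlap lay in ANTXRL, with 12 double-knockout reads against 14 wild-type reads. On the other side of the limit, unshared wild-type sites came within 6, 13 and 24 bp of a double-knockout site, 8 of 901 lay within 100 bp and 58 within 1000 bp. Their median distance to the nearest double-knockout site was 41056 bp.

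Partners were wider than the wild-type sites they overlapped. In the pairs the median width was 622 bp in the double knockout (quartiles 445 and 925 bp) and 418 bp in wild type (313 and 594 bp), and the median ratio was 1.35. The double-knockout site was the wider one at 2271 of 2717 sites (83.6%). It was at least 1.5 times wider at 1081 sites, 39.8% of those compared, and at least 1.5 times narrower at 78, or 2.87%. The gain was even on both flanks, with a median of 60 bp towards lower coordinates and 64 bp towards higher ones. Of the wild-type sites 55.4% lay wholly inside their partner, while 5.26% of partners lay wholly inside the wild-type site. Double-knockout data were deeper by the estimate above, and their narrowest site was 256 bp against 243 bp in wild type. The part of depth in the widths was not tested.

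**Figure D1:**
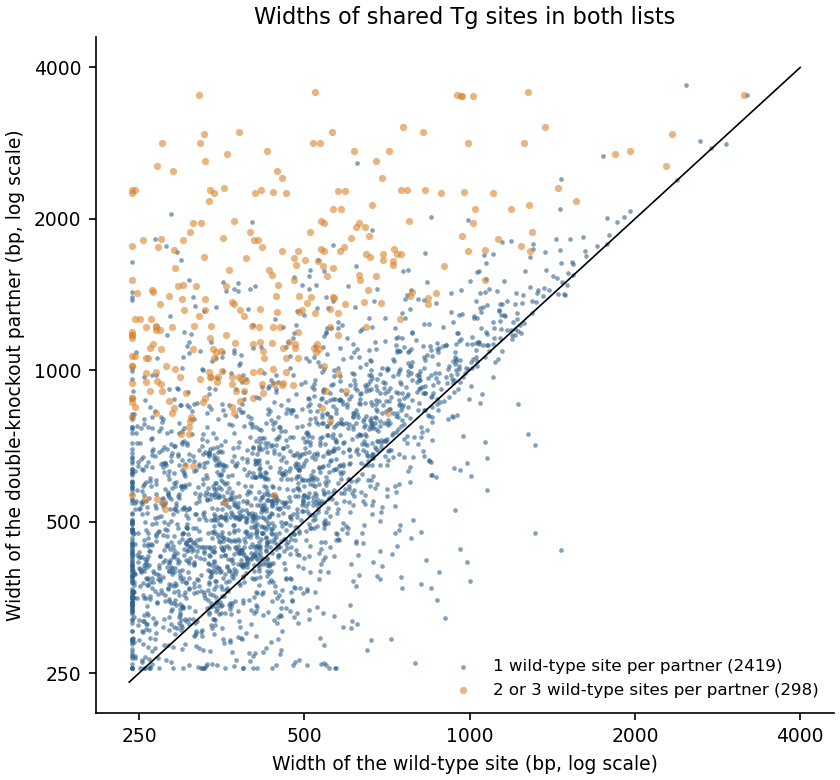
Width of the double-knockout partner (vertical axis, bp, log scale) against the width of the wild-type site (horizontal axis, bp, log scale), 1 point per shared wild-type site, with the line of equal widths. Most points lie above the line, and at 285 of the 298 sites whose partner covers 2 or 3 wild-type sites the partner is at least 1.5 times wider.

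The widening was greatest for narrow wild-type sites. The 581 sites under 300 bp had partners of 469 bp in the median (ratio 1.80), and 66.1% of them were at least 1.5 times wider in the double knockout. For the 163 wild-type sites of 1000 bp or more the median partner was 1413 bp (ratio 1.10), and 13.5% were at least 1.5 times wider. A narrow site in 1 list has more room to be wider in the other, so this order is partly built in.

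Double-knockout sites that covered several wild-type sites were long blocks. The 136 that covered 2 ranged from 531 to 3569 bp (median 1312 bp) and the 10 that covered 3 from 1758 to 3533 bp (median 2621 bp). Of those over 3 sites the one with the most reads lay in SLC1A7, a glutamate transporter gene on chromosome 1. There a 3533 bp double-knockout site (53095545 to 53099077) with 44 reads overlapped wild-type sites of 321, 949 and 3158 bp with 19, 14 and 24 reads. A second SLC1A7 block of 2415 bp (53099479 to 53101893) with 42 reads overlapped the last of these and wild-type sites of 693 and 455 bp with 23 and 12 reads. GRM4, a metabotropic glutamate receptor gene on chromosome 6, had a double-knockout site of 2826 bp (34070725 to 34073550) with 42 reads over wild-type sites of 518, 1258 and 323 bp with 13, 19 and 14 reads. Other blocks over 3 wild-type sites lay on chromosome 2 in the non-coding gene LALTOP (2832 bp, 37 reads), on chromosome 2 outside annotated genes (1758 bp, 36 reads) and on chromosome 6 outside annotated genes (2282 bp, 39 reads). In these 3 the wild-type sites held 12 to 19 reads each.

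The reverse case, a wild-type site with 2 partners, was rarer. The strongest lay outside genes on chromosome 20 (31068023 to 31068874), with 68 double-knockout reads in the partner with the larger overlap against 49 wild-type reads. The third strongest was the 3158 bp wild-type site in SLC1A7, whose far end reached a second double-knockout site. Over all 36 such sites the median width was 551 bp in the double knockout and 731.5 bp in wild type.

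Summits lay close together but seldom on the same base. The median distance between the double-knockout and the wild-type summit was 92 bp (quartiles 35 and 205 bp). It was 0 at 22 sites, at most 50 bp at 33.2% and at most 200 bp at 74.4%. No side was preferred: the double-knockout summit lay at the higher coordinate at 1342 sites and at the lower one at 1353. At 95.8% of sites the wild-type summit fell inside the partner, and at 83.0% the double-knockout summit fell inside the wild-type site.

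**Figure D2:**
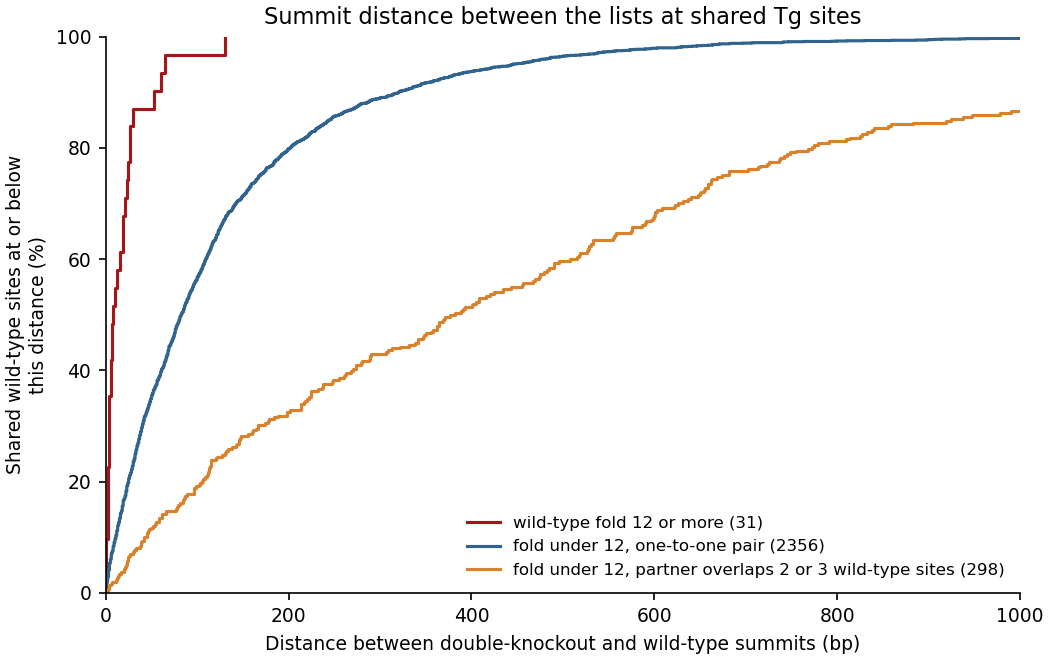
Cumulative share of shared wild-type sites (vertical axis, %) by the distance between double-knockout and wild-type summits (horizontal axis, bp, shown to 1000), for 3 kinds of site. Sites with a wild-type fold enrichment of 12 or more stay within 130 bp. Pairs of 1 site each with a fold under 12 follow, and sites under a long common partner spread much farther. The median over all pairs of 1 site each, those with a fold of 12 or more included, is 81 bp. Sites with 2 partners are drawn only where the compared partner covers another wild-type site.

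Large distances belonged to long sites. All 45 sites with summits more than 1000 bp apart had a partner that was at least 1000 bp wide or covered several wild-type sites. Summits of overlapping sites can lie that far apart only where the sites together span more than 1000 bp, so this is largely built in. The largest distance was 2720 bp, between the SLC1A7 block and the first wild-type site under it. It was followed by 2560 bp at a 3510 bp double-knockout site outside genes on chromosome 2 (239865763 to 239869272). Next came 2347 bp in CD5, the gene of a lymphocyte surface receptor, 2172 bp in RILPL1, which encodes a Rab-interacting lysosomal protein, and 2011 bp in CAMSAP1, which encodes a binder of microtubule minus ends. In CD5 a 2955 bp double-knockout site with 36 reads covered a 329 bp wild-type site with 15 reads and a 2337 bp one with 20 reads.

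The widest wild-type sites were found again as single long sites or blocks. The widest, 3194 bp in PPP6R2 (chromosome 22, 50337277 to 50340470), a regulatory subunit gene of protein phosphatase 6, lay wholly inside a 3529 bp double-knockout site, with 41 double-knockout and 23 wild-type reads. The site in SLC1A7 was second. The third, in ZNF511-PRAP1 (chromosome 10), was 2819 bp wide in the double knockout and 2926 bp in wild type, with 37 and 24 reads, and its summits lay 1636 bp apart.

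Scaled for depth, reads at shared sites were near equal in both genotypes. The scaling would remove a difference in reads that runs through the whole genome. Ratios here and below are therefore relative and do not give the amount of Tg. Double-knockout reads had a median of 13.6 after scaling and wild-type reads a median of 14, and the median ratio was 0.945 (quartiles 0.788 and 1.13). Divided by the ratio of depth alone the median ratio was 0.996. The double knockout was lower at 1569 of 2717 sites (57.7%). It was at least 1.5-fold lower at 278, which is 10.2% of the sites compared, and at least 1.5-fold higher at 140, which is 5.15%. By depth alone these counts were 188 and 184. Members had to be listed in both genotypes, so a site much weaker in 1 of them is missing from these ratios.

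**Figure D3:**
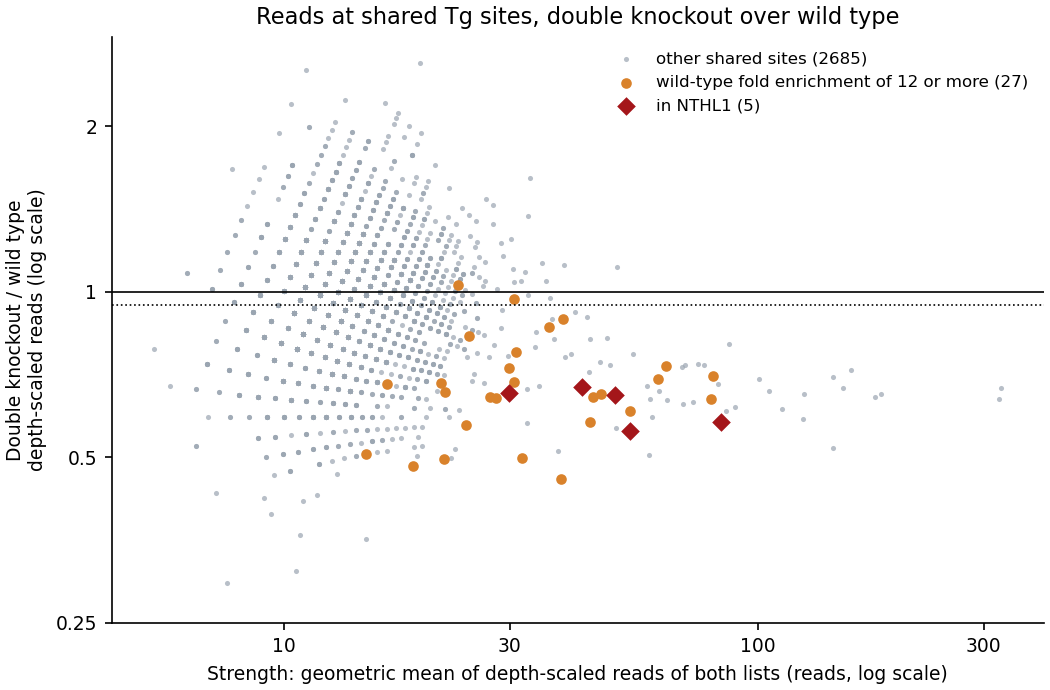
Ratio of depth-scaled reads, double knockout over wild type (vertical axis, log scale), against the strength of a shared site (geometric mean of the reads of both lists, log scale), 1 point per shared wild-type site. The solid line marks 1 and the dotted line the median of 0.945; the 5 sites in NTHL1 and 29 of the 31 sites with a wild-type fold of 12 or more lie below the dotted line.

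The strongest shared sites lay below that median. Strength is taken here as the geometric mean of wild-type and scaled double-knockout reads, which treats the lists alike. The median ratio was 0.806 at the 268 sites with a strength under 10, 0.967 at the 1398 sites from 10 to 15, 0.985 at the 753 from 15 to 20 and 0.957 at the 217 from 20 to 30. It was 0.695 at the 81 sites of 30 or more. Of those 81, 42 stood on a wild-type background over 10 reads (median ratio 0.668) and 39 on a lower one (0.777, or 0.822 over the 35 of them outside NTHL1). By depth alone the 81 had a median ratio of 0.732.

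The 10 strongest shared sites were all outside annotated genes and on a high background. Of these, 7 lay on chromosome 16, between 34582051 and 34589020 or between 46387707 and 46401078, and 1 each on chromosomes 1, 3 and 21. The first was 1417 bp wide in the double knockout and 1488 bp in wild type (wild-type site at chromosome 16, 46389537 to 46391024), with 452 reads over a background of 143 in the double knockout and 400 reads over 92.8 in wild type. The second, on chromosome 3 (93470272 to 93470888), had 437 reads over 169 in the double knockout and 405 over 105 in wild type. The ratios of the 10 ranged from 0.520 (0.422 to 0.640) to 0.722 (0.592 to 0.882), and summits lay within 3 bp of each other at 7 of them. Strength and ratio count all reads at the summit, background included. Fold enrichment of the 10 was 2.36 to 3.14 in the double knockout and 3.50 to 4.66 in wild type. Both ranges lay below the medians of all shared sites (5.77 and 5.26). In all, 42 shared sites (1.55%) had a wild-type background over 10 reads, 20 of them on chromosome 16.

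A second kind of strong site, called sharp here, stood on a wild-type background of 0.739 to 4.22 reads. Fold enrichment reached at least 12 at 31 wild-type sites of the whole list on these chromosomes, and all 31 were shared; this group was set apart after its values were seen. Their median width was 429 bp in the double knockout and 407 bp in wild type, and none exceeded 685 and 666 bp. Over all shared sites the median widths were 622 and 418 bp, so in wild type the 31 were close to the rest. Summits of the 31 lay 8 bp apart in the median and at most 30 bp apart at 27 of 31, against 582 of the other 2686 shared sites (21.7%). Close summits were not particular to the 31: the 42 strong sites on a wild-type background over 10 reads had a median distance of 5 bp. Scaled reads were lower in the double knockout at 30 of 31, with a median ratio of 0.652, and at least 1.5-fold lower at 17 (54.8%, beside 10.2% of all shared sites). By depth alone the median ratio of the 31 was 0.687 and 10 were at least 1.5-fold lower. Of the 42 on a background over 10 reads, 20 were at least 1.5-fold lower by the main scaling, with a median ratio of 0.668.

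Since a choice by the wild-type value favours low ratios, the same choice was made by the double-knockout value too. It is not an exact mirror. Fold adds 1 to reads and to background, so a fold of 12 asks for fewer scaled reads in the double-knockout list. Of the 31 double-knockout sites with a fold of at least 12, 30 were partners, of 31 wild-type sites. These 31 had a median ratio of 0.726 and 21 were below 1. The 22 sites with a fold of at least 12 in both lists had a median ratio of 0.664, with 21 below 1. The 9 that reached it in the double knockout alone had a median ratio of 1.35, with 0 below 1, and were wider, 920 bp in the double knockout and 758 bp in wild type. The 9 that reached it in wild type alone had a median ratio of 0.572. In both groups of 9 the choice by 1 list alone steers the ratio, so these values are a description only.

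Of the 31 sharp sites 14 lay in or within 1 kb of protein-coding genes. The highest wild-type fold was in CTBP2, a transcriptional corepressor gene (chromosome 10, 125098518 to 125098932), with 87 double-knockout and 74 wild-type reads and a ratio of 0.695 (0.504 to 0.960). SLC39A14, a zinc and manganese transporter gene on chromosome 8, had 44 and 57 reads, a ratio of 0.456 (0.301 to 0.688). ANAPC7, which encodes a subunit of the anaphase-promoting complex (chromosome 12), had 64 and 58 reads, a ratio of 0.652 (0.450 to 0.947), with summits 3 bp apart. DNAH14, an axonemal dynein gene (chromosome 1), had 61 and 56 reads with the summit on the same base and a ratio of 0.644 (0.440 to 0.942). Intervals that held 1 were found at RAB38, a GTPase gene of pigment granules (43 and 37 reads, 0.687, 0.432 to 1.10), and at NGB, the neuroglobin gene (38 and 27 reads, 0.832, 0.495 to 1.42). The same was true of KIAA1671 (43 and 35 reads, 0.726, 0.454 to 1.17). Several sharp sites outside genes also had such intervals, for example on chromosome 7 at 157461191 to 157461689 (0.864, 0.565 to 1.33). TRERF1 and MAP4K4 held 57 and 58, and 26 and 31 reads, the double-knockout number standing before the wild-type one in each pair. Among sharp sites outside genes, several lay at the very ends of chromosomes. On chromosome 5 sites at 10265 to 10671 and 11373 to 11814 had 51 and 108 double-knockout reads against 31 and 100 wild-type reads, with ratios of 0.972 (0.610 to 1.57) and 0.638 (0.482 to 0.846). On chromosome 18 a site at 80262752 to 80263386 had 114 and 96 reads (0.702, 0.530 to 0.930), and on chromosome 1 a site at 248945679 to 248946228 had 93 and 75 (0.733, 0.535 to 1.01).

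The NTHL1 gene, which is disrupted in the double knockout, held 5 shared sites and was the only gene with more than 1 of the sharp sites. In the order of their position, which runs from the end of the gene to its start, the double-knockout sites had 41, 68, 68, 108 and 59 reads. The wild-type sites had 37, 62, 72, 110 and 52 reads. Unscaled reads were thus close to equal, and after scaling for depth each site was lower in the double knockout. The ratios were 0.655 (0.410 to 1.05), 0.648 (0.453 to 0.930), 0.558 (0.395 to 0.788), 0.580 (0.441 to 0.764) and 0.670 (0.454 to 0.993), so the interval of the first site held 1. At 4 of 5 the difference was at least 1.5-fold, and by depth alone at 2 of 5, with a median of 0.683. Summits lay 12, 3, 2, 19 and 10 bp apart, and no NTHL1 site had more than 1 partner. The last site, at 2047579 to 2047987 on chromosome 16, is the one whose letters stand first above, with summits 51 bp (double knockout) and 41 bp (wild type) after the start of NTHL1. NEIL1 held 0 sites in either list.

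Shared sites were also counted over a list of base excision repair genes that includes NTHL1. Of 24 genes of the pathway, 2 held a shared site (8.33%), against 4.52% of all protein-coding genes, a difference that was not tested. Besides NTHL1 this was OGG1, the glycosylase for oxidised guanine, which overlaps CAMK1, a calcium-dependent kinase gene. The OGG1 site (chromosome 3, 9769069 to 9769311) was 584 bp wide with 26 reads in the double knockout and 243 bp wide with 12 reads in wild type, a ratio of 1.28 (0.624 to 2.79). Wild-type sites lay in 2 of the 24 genes and in 1179 of all 19974 protein-coding genes. Double-knockout sites lay in 5 of the 24 and in 2797 of all 19974. Of these 5, SMUG1, APEX2 and LIG1 had double-knockout sites (2, 1 and 1) with no wild-type site. The other 19 genes, among them NEIL2, NEIL3, UNG, MUTYH, POLB, XRCC1 and PARP1, had none in either list.

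The most unequal pairs of 1 site each were taken from the 897 with a strength of at least 15. The lowest ratios were those of SLC39A14, of a site outside genes on chromosome 14 (0.481, 0.261 to 0.878; 22 double-knockout and 27 wild-type reads), and of MAP4K4, a stress kinase gene (0.496, 0.283 to 0.863). A site at chromosome 16, 34576283 to 34576758 (0.499, 0.287 to 0.859), and a sharp site on chromosome 21 (0.499, 0.315 to 0.786) followed. The highest ratio, 2.12 (1.10 to 4.41), was outside genes on chromosome 7 (155918634 to 155919063), with 43 double-knockout and 12 wild-type reads. A site on X outside genes had 44 and 13 reads (ratio interval 1.06 to 4.05), and SLC25A53, a mitochondrial carrier gene on X, had 46 and 14 (1.94, 1.05 to 3.82). EPS15L1, an endocytosis gene, and NACC2, a transcriptional repressor gene, each had 35 and 11 reads and a ratio of 1.88 (0.933 to 4.10), an interval that held 1. These pairs are the ends of 897 values.

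Relative to genes, shared sites were placed much like the rest of the lists. Of the partners, 44.9% had their midpoint in the body of a protein-coding gene, 3.20% within 1 kb of an end of one, 11.3% in another annotated gene and 40.6% outside genes. Double-knockout sites without a partner gave 46.1%, 3.61%, 12.8% and 37.5% in the same order. Of the shared wild-type sites, 1221 (44.9%, 43.1% to 46.8%) lay in gene bodies, 89 (3.28%, 2.64% to 4.02%) at gene ends, 305 (11.2%, 10.1% to 12.5%) in other genes and 1102 (40.6%, 38.7% to 42.4%) outside genes. Wild-type sites without a partner gave 42.6%, 2.89%, 13.5% and 41.0%. Of the 305 sites in other genes, 281 lay in long non-coding RNA genes 12 in pseudogenes and 8 in transcribed pseudogenes. Median ratios were 1.01 at gene ends, 0.955 in gene bodies and in other genes alike, and 0.923 outside genes, a span smaller than the distance between quartiles within each of them.

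**Figure D4:**
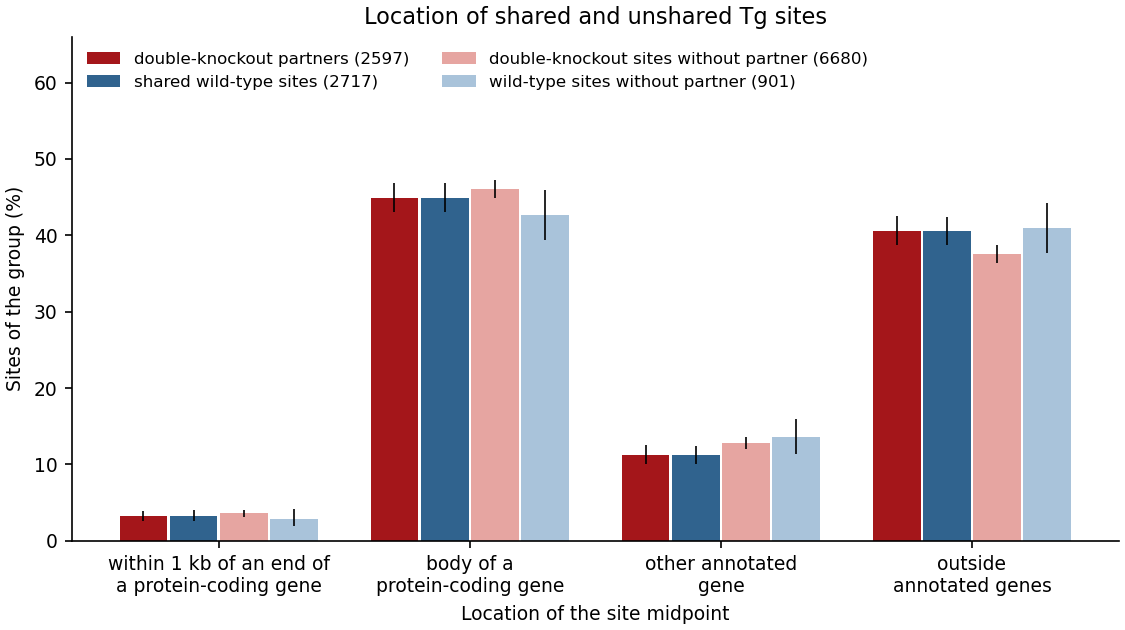
Share of sites (vertical axis, %) by the location of the midpoint, for double-knockout partners, shared wild-type sites, and the sites of each list without a partner, with exact 95% intervals. The 4 groups give similar shares, from 2.89% to 3.61% within 1 kb of a gene end and from 42.6% to 46.1% in gene bodies.

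In both lists a larger share of shared than of unshared sites lay near chromosome ends, a difference that was not tested because sites are not independent. Of the partners, 788 of 2597 (30.3%) lay less than 5 Mb from the first or last gene or site of their chromosome, against 919 of 6680 double-knockout sites without a partner (13.8%). Of the shared wild-type sites 829 (30.5%) did, against 156 of 901 unshared ones (17.3%, 14.9% to 19.9%). Shared wild-type sites were also stronger, with a median of 14 reads and a width of 418 bp against 11 reads and 294 bp. Whether strength accounts for their position was not tested. Another shared site lay within 10 kb of 676 shared wild-type sites (24.9%) and within 100 kb of 1492 (54.9%). For all 3618 wild-type sites, which include the shared ones, these shares were 23.8% and 56.4%, and for the 901 unshared ones 6.55% and 17.3%. Each share counts neighbours of the same group, and the groups differ in size, so the shares are not matched.

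By chromosome, sharing was lowest on X and on chromosome 3. On X 85 of 467 double-knockout sites (18.2%) and 87 of 146 wild-type sites (59.6%, 51.2% to 67.6%) were shared. On chromosome 3 these were 73 of 421 (17.3%) and 74 of 123 (60.2%, 50.9% to 68.9%). Chromosome 9 had the highest wild-type share, 138 of 165 (83.6%, 77.1% to 88.9%), and chromosome 21 the highest double-knockout share, 73 of 186 (39.2%, 32.2% to 46.7%). Wild-type sites on X and chromosome 3 had a median of 12 reads, against 13 over the list. Within wild-type sites under 12 reads, 47.5% were shared on X (29 of 61), 24 of 60 on chromosome 3, 52.6% on chromosome 9 (20 of 38) and 53.5% over all. Within those of 12 to 15 reads, 60.0% were shared on X (33 of 55) and 68.4% on chromosome 3 (26 of 38), against 90.3% on chromosome 9 and 78.3% over all. With 16 reads or more the shares were 83.3% on X, 96.0% on chromosome 3, 96.4% on chromosome 9 and 92.6% over all. The median ratio at shared sites was 1.08 on X and lay between 0.860 and 0.985 on the other 22 chromosomes.

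**Figure D5:**
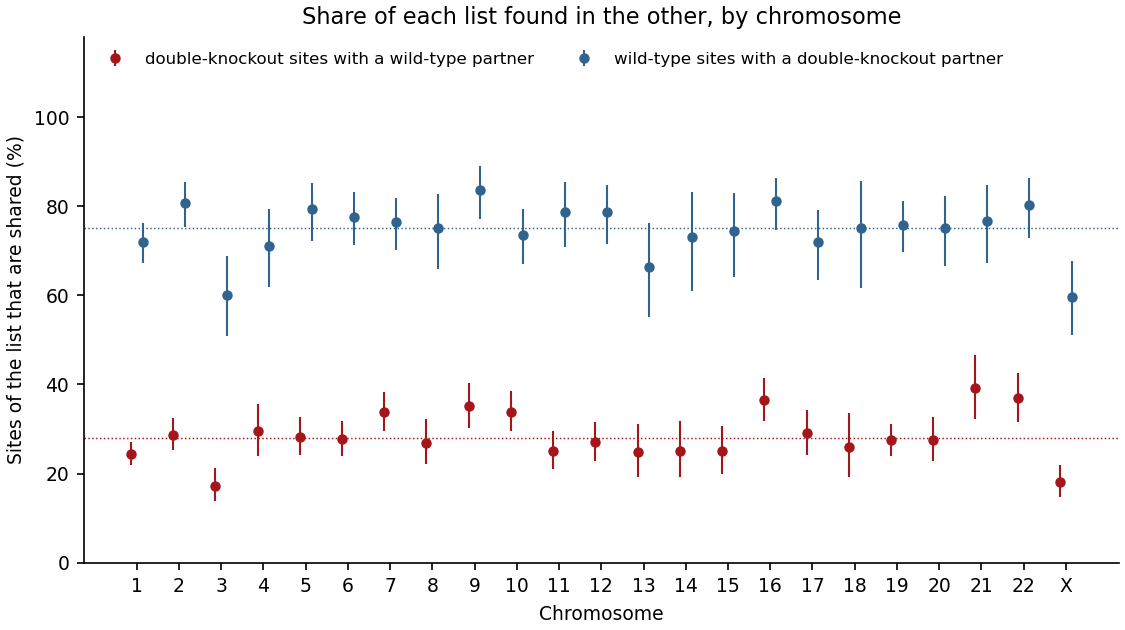
Share of double-knockout sites with a wild-type partner and of wild-type sites with a double-knockout partner (vertical axis, %) by chromosome, with exact 95% intervals and dotted lines at the shares over all chromosomes (28% and 75.1%). Chromosomes 3 and X are low in both lists.

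Shared sites fell in 903 of 19974 protein-coding genes. A single shared site was found in 684 genes, 2 in 139 and at least 3 in 80. The 10 genes with the most held 84 shared sites out of 89 wild-type sites. PTPRN2, a phosphatase-like gene of secretory vesicles (chromosome 7), had 20 of its 24 wild-type sites shared (83.3%). CDH4, the R-cadherin gene (chromosome 20), had 15 of 15. The collagen chain genes COL5A1 and COL22A1 had 8 of 8 and 6 of 6, GALNT9, which encodes an enzyme that starts mucin-type sugar chains, 7 of 7, and RBFOX3, the neuronal splicing factor NeuN, 6 of 6. CAMTA1, a calmodulin-binding transcription activator gene, had 7 of 8. NTHL1, SLC1A7 and GRM4 had 5 of 5 each. The genes were picked for their number of shared sites, so their shares are a description. Other genes, such as MUC3A, ZNF469 and EGFR, also had 5, and ties were broken by the summed strength of the shared sites.

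Over all pairs the median was 23 double-knockout and 14 wild-type reads. In PTPRN2 double-knockout reads ran from 18 to 42 (median 28.5) and wild-type reads from 11 to 25 (median 15), with ratios from 0.638 to 1.60 (median 1.03). In CDH4 they ran from 17 to 33 (median 22) and from 9 to 20 (median 14), with a median ratio of 0.971. COL5A1 and GALNT9 had median ratios of 0.871 and 0.834, COL22A1 and RBFOX3 0.976 and 0.975, and CAMTA1 1.09. SLC1A7 and GRM4 had ratios above 1 at 5 of 5 sites each (medians 1.37 and 1.31). In both genes long double-knockout blocks lend 1 read number to several wild-type sites, so these are not separate measurements. Among the 10, NTHL1 had the lowest median ratio, 0.648, and the highest median reads in both lists, 68 and 62. Its place among the 10 rested partly on its reads, through the tie rule.

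Gene starts within 1 kb of both summits were found for 47 protein-coding genes at 45 shared sites. After NTHL1 and TSC2 the strongest was LCK, a T-cell tyrosine kinase gene (chromosome 1), with 41 double-knockout and 20 wild-type reads, summits at -855 and -879 bp from the start, and a ratio of 1.21 (0.69 to 2.18). A site on chromosome 3 with 29 and 23 reads lay just inside the hydrolase gene ABHD14A and its readthrough gene ABHD14A-ACY1, with summits 516 and 510 bp after their common start, and before the start of ABHD14B on the other strand (0.75, 0.42 to 1.35). MXRA8, a cell surface gene (33 and 20 reads, 0.98), ADAMTS10, a matrix metalloprotease gene (40 and 15, 1.58), GUK1, the guanylate kinase gene (25 and 21, 0.70), and YJU2, a splicing factor gene (27 and 19, 0.84), followed. Their intervals held 1, ADAMTS10 included (0.85 to 3.07). Of these 10 genes NTHL1 and TSC2 had summits in both lists within 250 bp of the start.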

How the data were processed

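Tg was mapped by DPC-Seq in genomic DNA of HEK293T cells and of the isogenic double knockout. For each genotype the authors deposited 1 site list, without header and laid out like MACS2 narrow peaks less the name column. The authors' fold enrichment is a ratio over the caller's background, the deposited score was 10 times −log10 q rounded down at 100% of sites, and the deposited −log10 p and q-value are the caller's; the largest q was 0.0489 in the double-knockout list and 0.0450 in the wild-type list. The deposited summit offset is the distance of the summit from the start of the site in bp. The submitters' processing notes name hg38, Bowtie2, MACS2, bedtools and deepTools; how libraries were combined is not given in the sources used here. Lists were tied to genotypes by the word in their name that library titles carry.

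Whole reads n and background b were found from fold = (n + 1)/(b + 1) and the Poisson tail above n; −log10 p was met within 0.001 at 100% of sites. Pairs share at least 1 bp, and where a site had 2 partners the larger overlap was compared. Genes came from RefSeq GRCh38.p14 (59098 genes on these chromosomes), and T and A imbalance is the absolute difference over the sum. Python 3.11.15, pandas 2.3.3 and scipy 1.17.1 were used, and functions were tested on simulated data. Named were: the 10 strongest sites, the 10 genes with most shared sites, NTHL1 and NEIL1, a repair list, up to 10 genes with a start within 1 kb of both summits, up to 5 sites with most partners and 5 covering most sites, the 5 largest summit distances, the 5 highest and 5 lowest ratios among pairs with a strength of at least 15, and the 3 widest sites. Members and lists were chosen with earlier results of these data known. Sites on other chromosomes and contigs were left out. Alternatives covered the overlap, the q threshold, the partner, the divisor, the background and the placement of sites.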

Additional observations from a re-analysis of the deposited data

Results flagged for a closer look

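Sites outside chromosomes 1 to 22 and X take no part in the comparisons above. There the double-knockout list had 96 sites and the wild-type list 70, and 59 wild-type sites (84.3%, 73.6% to 91.9%) overlapped a double-knockout site. They were singled out because they lie in data that the comparisons do not use, and this overlap was not tested. They include all 10 wild-type sites on mitochondrial DNA, where the double-knockout list had 9.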

How the results depend on the processing

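With 1 list per genotype no library could be left out. No paired analysis was possible because the lists hold no values per library. Under other settings and 1 added after seeing the data (without sites on a background over 10 reads), 56 of 76 recomputed values stayed within the interval, or within 1.5 times the count, of the value reported, and 0 turned direction. With a reciprocal overlap of at least 50%, 100% of sites had 1 partner, and sharing came to 42.5% on X, 44.7% on chromosome 3 and 60.0% on chromosome 9. With summits within 100 bp 1434 sites were shared. With q under 0.001 in both lists the median width ratio was 1.32, the median read ratio 0.923 and the median fold enrichments 5.92 (double knockout) and 5.53 (wild type), and SLC1A7 kept 3 shared sites. Over pairs of 1 site each the median summit distance was 81 bp, the width ratio 1.29 and the read ratio 0.929. Divided by depth alone the read ratio was 0.996. Without backgrounds over 3 times the lowest the median folds were 6.28 and 5.69. Gene ends held 4.27% of sites when any overlap counted. With ends of 3 kb, ends held 9.90%, gene bodies 40.6% and intergenic DNA 38.6%. Where a setting does not itself change which sites are counted, the cause of the shift was not tested. Weak sites limit precision: at 14 reads a ratio is known only to within a wide counting interval.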
